A study of Mus musculus with 4 samples.

Results

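The 43 genes described here are read when a cell copies its DNA or divides. They were taken by symbol from a list of replication and mitosis genes, and each of the 43 symbols matched 1 of the 32285 genes in the count tables. Of these members, 19 act at the G1/S boundary and in S phase and 24 act in G2 and M phase. The question was which cells of mouse ascites carried their transcripts, and how the levels compared between the treatment groups.

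Ascites is the fluid, with its tumor and immune cells, that collects in the peritoneal cavity. It was taken from female FVB mice 6 weeks after injection of tumor cells (Br-Luc), lysed to remove red cells and profiled by droplet single-cell RNA sequencing. The paper gives the genotype of Br-Luc cells as p53-/-, brca1-/-, myc and Akt-myr. The 2 libraries of one group came from mice given a control siRNA (siCont) and the 2 of the other from mice given an siRNA against Fxr1 with locked nucleic acids (siFXR1-LNA), carried in jetPEI. Per the methods, ascites of 3 mice was pooled into each sample, so a library is a pool and not a mouse, and p-values measure the spread between these pools only.

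Fxr1 itself, the target of the siRNA, was not lower in the siFXR1-LNA-labelled libraries. Over all barcodes its level was 57.2 and 36.6 CPM (UMIs of a gene scaled to a total of 1000000 UMIs) in the siCont-labelled libraries, replicates 1 and 2, and 104 and 74.4 CPM in the siFXR1-LNA-labelled libraries. In macrophages it was 65.4 and 58.8 against 73.1 and 68.2 CPM, and in epithelial or mesothelial cells 113 and 140 against 144 and 140 CPM (139.6 and 139.7 before rounding). Neither passed the test described further on (edgeR adjusted p = 0.0917 and 0.723), so Fxr1 transcripts did not mark the treated libraries, and each library is named by its label below, with paired values in the order of replicates 1 and 2.

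A dividing cell passes from G1 to S phase under cyclin E, loads and fires the MCM helicase at replication origins, and makes nucleotides for the new strands. It then builds cyclins A and B with Cdk1, condenses and aligns its chromosomes on the spindle, and discards the mitotic regulators through the anaphase-promoting complex. Most of these genes are nearly silent in resting cells, since E2F factors with RB proteins hold the S-phase set in check and the DREAM complex holds the G2 and M set. Leukocytes of the peritoneal cavity are mostly resting, although resident macrophages can renew themselves by division there.

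The members' promoters hold motifs of both kinds of control. RefSeq windows of 300 bases (250 before to 50 after the start, GRCm38.p6) were found for 37 of the 43 members. Ccne2, Mcm4, Gins2, Ccna2, Aurkb and Tpx2 had none, and 2 members had 2 windows each, which gave 18 windows for S-phase members and 21 for G2 and M members. An E2F site, searched as TTTGGCGC, TTTCCCGC, TTTGCCGC or TTTCGCGC on both strands, was in 8 of the 18 S-phase windows (44.4%), in 1 of the 21 G2 and M windows (4.76%) and in 2.26% of 32851 promoters. The 3 windows below are of S-phase members with such a site, Mcm6 at chr1:128359656-128359955 on the minus strand, Mcm5 at chr8:75109259-75109558 on the plus strand and Hells at chr19:38930740-38931039 on the plus strand. They are printed 5′ to 3′ in the direction of the gene, with E2F sites of either strand in capitals (where sites overlap, 1 longer run).
Mcm6: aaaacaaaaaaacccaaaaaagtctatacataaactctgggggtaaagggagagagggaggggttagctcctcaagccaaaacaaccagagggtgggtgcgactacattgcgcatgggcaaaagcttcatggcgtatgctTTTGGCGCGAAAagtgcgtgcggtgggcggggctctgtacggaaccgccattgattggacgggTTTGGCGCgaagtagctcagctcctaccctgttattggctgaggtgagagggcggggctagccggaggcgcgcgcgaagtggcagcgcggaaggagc
Mcm5: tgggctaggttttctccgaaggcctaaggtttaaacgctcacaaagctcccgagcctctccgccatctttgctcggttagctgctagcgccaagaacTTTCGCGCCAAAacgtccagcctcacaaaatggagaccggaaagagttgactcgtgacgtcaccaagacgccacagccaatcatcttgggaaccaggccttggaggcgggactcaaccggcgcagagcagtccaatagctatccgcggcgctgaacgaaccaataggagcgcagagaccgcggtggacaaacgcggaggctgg
Hells: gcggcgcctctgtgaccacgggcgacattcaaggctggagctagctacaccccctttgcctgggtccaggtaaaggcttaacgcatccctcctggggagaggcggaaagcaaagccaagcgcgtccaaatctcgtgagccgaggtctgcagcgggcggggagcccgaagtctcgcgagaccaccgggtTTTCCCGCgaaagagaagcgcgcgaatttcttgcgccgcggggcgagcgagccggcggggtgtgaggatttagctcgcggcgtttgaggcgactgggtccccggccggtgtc
The cell cycle homology region, the element that DREAM and B-Myb complexes bind, was searched as TTTGAA on both strands. It was in 16 of the 21 G2 and M windows (76.2%), in 2 of the 18 S-phase windows (11.1%) and in 17.9% of all promoters. The CCAAT box, searched as CCAAT on both strands, was in 18 of the 21 G2 and M windows (85.7%), in 12 of the 18 S-phase windows (66.7%) and in 37.4% of all promoters. The 3 windows below show G2 and M members, Top2a at chr11:99024140-99024439 on the minus strand, Cdc20 at chr4:118437294-118437593 on the minus strand and Plk1 at chr7:122159185-122159484 on the plus strand, with TTTGAA or its reverse complement in capitals.
Top2a: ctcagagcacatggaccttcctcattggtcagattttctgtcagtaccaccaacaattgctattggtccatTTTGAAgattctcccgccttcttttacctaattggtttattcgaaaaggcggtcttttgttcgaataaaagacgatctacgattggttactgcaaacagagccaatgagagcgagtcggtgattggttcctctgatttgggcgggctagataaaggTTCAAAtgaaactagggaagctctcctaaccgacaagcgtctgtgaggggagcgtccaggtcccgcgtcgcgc
Cdc20: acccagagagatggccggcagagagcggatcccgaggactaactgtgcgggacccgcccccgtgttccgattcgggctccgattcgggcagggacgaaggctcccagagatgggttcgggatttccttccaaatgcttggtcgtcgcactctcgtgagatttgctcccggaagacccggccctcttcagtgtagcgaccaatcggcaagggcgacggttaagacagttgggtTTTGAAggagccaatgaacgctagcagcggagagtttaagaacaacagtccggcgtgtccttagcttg
Plk1: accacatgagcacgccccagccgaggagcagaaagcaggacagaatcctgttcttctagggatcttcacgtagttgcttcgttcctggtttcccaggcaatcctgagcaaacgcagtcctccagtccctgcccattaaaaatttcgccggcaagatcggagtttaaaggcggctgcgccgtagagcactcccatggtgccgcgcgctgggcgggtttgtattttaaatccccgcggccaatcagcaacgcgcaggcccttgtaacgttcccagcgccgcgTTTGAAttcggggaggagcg
A match is a string of letters and not a shown binding site. No motif searched contains another, and these windows are referred to again where Mcm6, Mcm5, Hells, Top2a, Cdc20 and Plk1 are described.

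The libraries held 17309 to 54665 barcodes and 78179267 to 113606837 UMIs each, and 16874 to 54344 cells per library passed the filter of 100 to 4800 genes and at most 15% mitochondrial UMIs. Cells were clustered without the members and without other listed cell cycle genes, so that none of these genes set the cell types, and clusters were named from marker lists. Macrophages numbered 5162 and 2558 in the siCont-labelled libraries and 4142 and 3954 in the siFXR1-LNA-labelled libraries, with all 7 of their markers highest in that type. Epithelial or mesothelial cells numbered 715 and 102 against 1240 and 353. Only Wt1 (1052 CPM) and Muc16 of their 10 markers were highest in that type, Epcam stood at 6.17 CPM, and the keratins were higher in 46 cells named fibroblasts, so their label rests on Wt1 and on 6 raised markers. Erythroid cells, with most of their UMIs from hemoglobin, numbered 21338 and 14512 against 14 and 78, while a shallow cluster that stayed unnamed held 57 and 38 against 40936 and 5351 cells. Libraries shared 3.41% to 7.84% of the smaller library's barcodes.

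The library labelled siCont replicate 1 stood apart in these genes. Red cells of mammals end as cells without a nucleus, so their summed member level gives a floor of free RNA, doublets and leftover precursors. It was 1240 CPM in the erythroid cells of siCont replicate 1 and 359 CPM in those of siCont replicate 2. These levels are over all UMIs, of which hemoglobin made up 57.2% and 78.9% in these cells. Without hemoglobin and mitochondrial UMIs the erythroid levels were 2912 and 1709 CPM. In siCont replicate 1 the 6 other large types lay between 1016 and 1710 CPM, and only 3 of the 43 members in macrophages and 10 in epithelial or mesothelial cells were above 2 times their erythroid level. In siCont replicate 2 the numbers were 40 and 21. Results that rest on siCont replicate 1 are therefore given with and without it.

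Summed over the 43 members, macrophages and DCs (dendritic cells) had both siCont-labelled libraries close together and well above both labelled siFXR1-LNA. In macrophages the level was 1203 and 1178 CPM in the siCont-labelled libraries and 490.1 and 493 CPM in the siFXR1-LNA-labelled libraries. DCs had 1016 and 878 against 444 and 348 CPM, again with no overlap between the groups. In epithelial or mesothelial cells the level was 1710 and 565 CPM against 567 and 455 CPM. The high value was that of siCont replicate 1, and the other 3 libraries were alike. The shallow unnamed cluster had 595.5 and 363 CPM in the siFXR1-LNA-labelled libraries, above macrophages in replicate 1 and below them in replicate 2.

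The lymphocytes were led by siCont replicate 1. T cells had 1411 and 766 CPM against 665 and 683 CPM, and B cells had 1108 and 554 against 614 and 522 CPM. In B cells the groups overlapped, since siCont replicate 2 was below siFXR1-LNA replicate 1. Granulocytes had 1537 and 1114 against 767 and 740.2 CPM, but Hmgb2, a chromatin protein that many cells at rest also make, gave 363 and 560.3 against 362 and 472 of these. Without Hmgb2 the granulocytes had 1174 and 554 against 405 and 268 CPM.

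The order of the cell types was not the same from library to library. In siCont replicate 2, where the erythroid floor over all UMIs was low, macrophages were highest and epithelial or mesothelial cells were below DCs and T cells. In siCont replicate 1 epithelial or mesothelial cells were highest. In both siFXR1-LNA-labelled libraries, granulocytes were first among the large types, T cells second and DCs last. T cells at 665 CPM (95% exact Poisson interval 629 to 703) and B cells at 614 CPM (580 to 649) of siFXR1-LNA replicate 1 were neighbours in that order, with intervals that overlapped. The first place of granulocytes rested on Hmgb2. Without it they had 405 and 268 CPM in these libraries, below T cells at 500 and 458 CPM. Epithelial or mesothelial cells then had 506 and 408 CPM. The denominator also bears on the order. With hemoglobin and mitochondrial UMIs left out of the totals, erythroid cells of the siCont-labelled libraries rose to 2912 and 1709 CPM, above macrophages at 1328 and 1270 CPM.

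**Figure D1:**
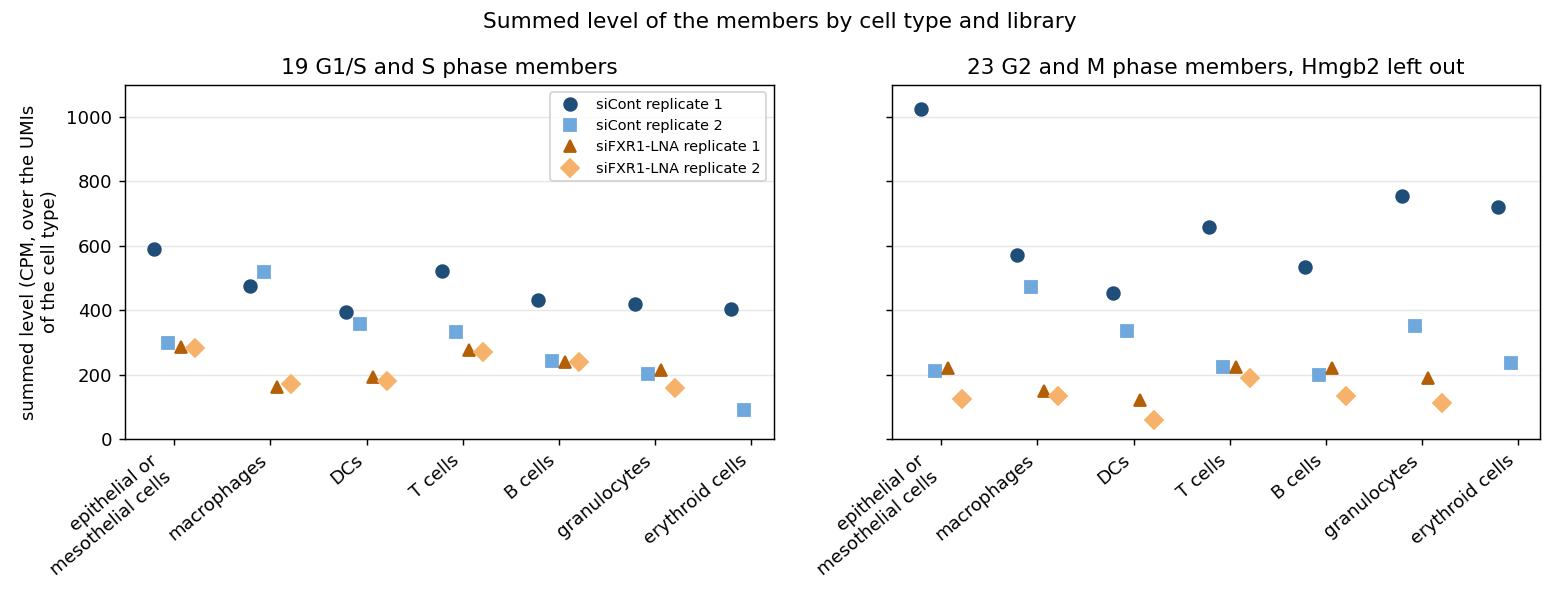
Summed level of the 19 S-phase members (left) and of the 23 G2 and M members other than Hmgb2 (right), in CPM over the UMIs of the cell type on a linear axis, by cell type. Each point is 1 library, shown where it held at least 100 cells of the type, and in macrophages both siCont points (475 and 520 for S phase) stand above both siFXR1-LNA points (162 and 170).

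Split by phase, macrophages kept the gap in both phases. Their S-phase members summed to 475 and 520 against 162 and 170 CPM, and the G2 and M members without Hmgb2 to 573 and 474 against 149 and 133 CPM. In epithelial or mesothelial cells the S-phase sums were 590 and 297 against 285 and 284 CPM. The G2 and M sums without Hmgb2 were 1026 and 212 against 221 and 124 CPM, so siCont replicate 1 stood alone in both phases.

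Single members had their highest level in different types. Ranked over epithelial or mesothelial cells, macrophages, DCs, T cells, B cells and granulocytes, 30 of the 43 members were highest in macrophages in siCont replicate 2 (14 S-phase and 16 G2 and M members), and 27 were highest in epithelial or mesothelial cells in siCont replicate 1. Only 5 members kept 1 top type in all 4 libraries. Rrm1, the large subunit of ribonucleotide reductase, Hells, a chromatin remodeler whose promoter is shown above, and Bub1b, a spindle checkpoint kinase, were highest in epithelial or mesothelial cells. Mcm3, a subunit of the replicative helicase, was highest in macrophages, and Hmgb2 in granulocytes. Ube2c, the ubiquitin-conjugating enzyme of the anaphase-promoting complex, stood out in the erythroid cells of the siCont-labelled libraries, at 144 and 111 CPM.

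A cell in cycle reads many members at once, whereas free RNA spreads single UMIs over all cells. Every cell was therefore thinned to 1000 UMIs, shallower cells were left out, and the distinct members with a UMI were counted per cell. At 3 or more members the share of macrophages was 9.52% (95% exact binomial interval 8.72 to 10.4) and 9.85% (8.72 to 11.1) in the siCont-labelled libraries, and 1.24% (0.923 to 1.62) and 1.83% (1.43 to 2.29) in the siFXR1-LNA-labelled libraries. The share of erythroid cells was 12.2% in siCont replicate 1 and 0.535% in siCont replicate 2, at median depths of 1710 and 2318 UMIs before thinning against 4859.5 and 7947 for macrophages. The macrophage share thus stood clear of the erythroid one only in siCont replicate 2, and that of siCont replicate 1 was at background. Hemoglobin made up 57.2% and 78.9% of the erythroid UMIs against 8.40% and 6.19% in macrophages. A thinned erythroid cell therefore kept fewer other UMIs, which lowers its count of members, and no thinning without hemoglobin was done. The group means differed by -8.15 percentage points with thinning and by -18.45 without it. In the shallow unnamed cluster the share was 2.05% (1.91 to 2.19) and 1.03% (0.759 to 1.38) in the siFXR1-LNA-labelled libraries. The macrophage share was thus below that of the unnamed cluster in siFXR1-LNA replicate 1 and above it in siFXR1-LNA replicate 2. These intervals cover counting error only. Macrophages with 3 or more members were deeper than the others before thinning, at medians of 5557.5 and 10487.5 against 4841.5 and 7800 UMIs in the siCont-labelled libraries. Their 10 epithelial markers, which a doublet with a tumor cell would raise, summed to 330 and 75.0 CPM in the siCont-labelled libraries and 266 and 135 CPM in the siFXR1-LNA-labelled libraries, beside 327, 83.2, 301 and 161 CPM in the other macrophages. Among the 5% highest Scrublet scores, a measure of likely doublets, were 6.61%, 0%, 1.96% and 2.78% of the macrophages with 3 or more members, and 1.93%, 0.0441%, 1.77% and 7.91% of the others. The share was thus higher in siCont replicate 1 and lower in siFXR1-LNA replicate 2, and the part of doublets was not tested.

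A stricter count was above the erythroid share in macrophages and in DCs of both siCont-labelled libraries. At 5 or more members macrophages held 3.76% and 4.89% against 0.461% and 0.888%, while erythroid cells held 1.35% (1.20 to 1.52) and 0.0571% (0.0247 to 0.113). DCs held 2.21% (1.34 to 3.44) and 3.02% (1.52 to 5.34) against 0 of 278 and 0 of 181 cells, which allows up to 1.08% and 1.66%, so in siCont replicate 1 their interval met the erythroid one and in siCont replicate 2 it did not. Epithelial or mesothelial cells held 7.82% and 1.00% against 1.38% and 0.855%. The second was 1 of 100 cells (interval 0.0253 to 5.45). Among the siCont-labelled libraries this type thus stood clear of the erythroid share in replicate 1 only. In the siFXR1-LNA-labelled libraries its shares and those of macrophages were above the background given below for them. At 8 or more members the macrophage shares were 1.16% and 1.51% against 0.0971% and 0.101%, and those of epithelial or mesothelial cells 1.71%, 0 of 100 cells (which allows a share of up to 3%), 0.406% and 0.285%. The erythroid share at that count was 0.0846% and 0.00714%. Hemoglobin was among the UMIs of the thinned erythroid cells at each count, so these shares are low estimates of the background. In macrophages both siCont-labelled libraries were above both labelled siFXR1-LNA at each of the 3 counts.

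T cells, B cells and granulocytes held fewer such cells than macrophages. At 5 or more members T cells held 1.42% and 0.327% against 0.116% and 0.171%, and B cells 1.19% and 0.248% against 0.115% and 0 of 634 cells, which allows up to 0.473%. The T and B cells of siCont replicate 1 were thus at the erythroid share of that library. Granulocytes held 2.09% and 0.470% against 0.0559% and 0.0426%. In siCont replicate 2 the shares of T cells, B cells and granulocytes were each above the erythroid share given above, which counts hemoglobin among the UMIs. Barcodes of the unnamed clusters, which were frequent in the siFXR1-LNA-labelled libraries, held 0.0489% and 0 of 4467 cells (up to 0.0672%) there. That is a low background for those libraries at 5 or more members, but not at 3 or more, as given above. A finer cluster within T cells was led by Ly6c2, Ccl5 and Cd8b1. Its shares at 3 or more members were 24.1% (17.1 to 32.2) and 10.5% (6.44 to 15.9) in the siCont-labelled libraries. Those labelled siFXR1-LNA had only 2 and 22 cells of it. NK cells, split from the T cells, held 17.65% (9.465 to 28.8) and 10.4% (3.47 to 22.7) in the siCont-labelled libraries at that count. The erythroid shares there were 12.2% and 0.54%. At 5 or more members NK cells held 1 of 68 and 2 of 48 cells in the siCont-labelled libraries.

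**Figure D2:**
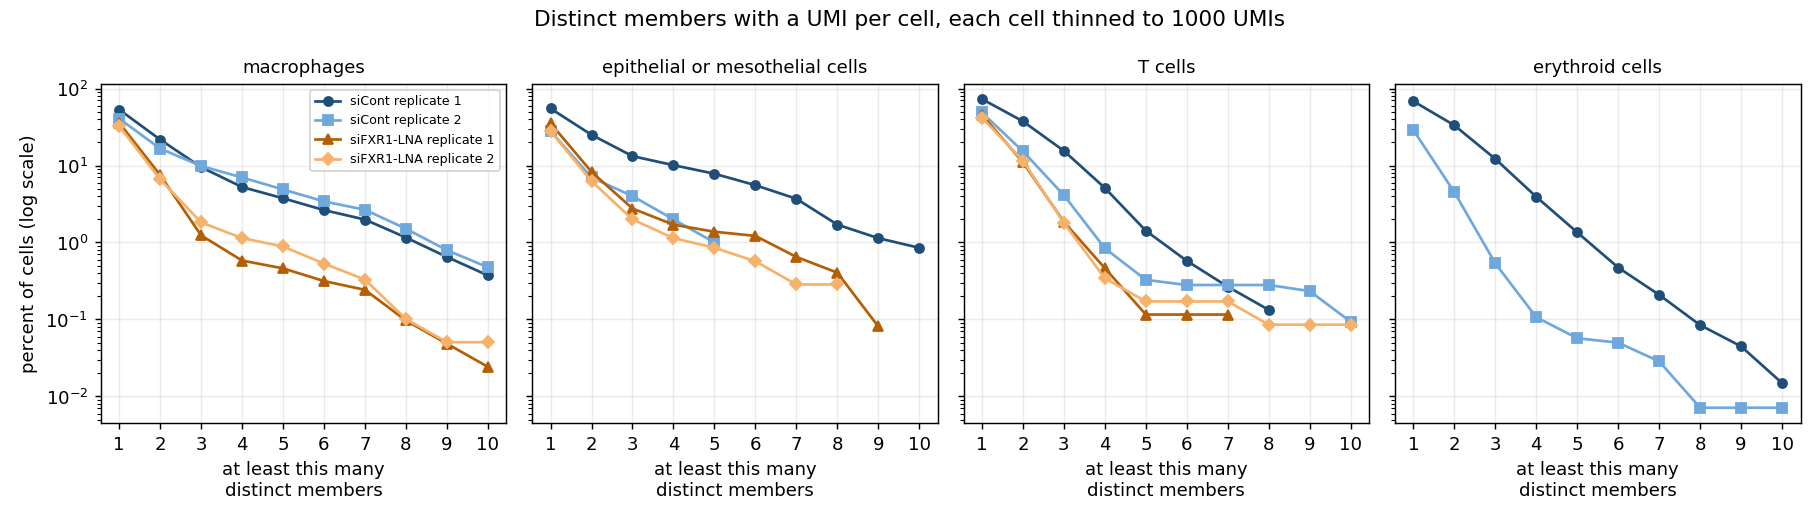
Percent of cells (log axis) with at least the number of distinct members given on the horizontal axis, each cell thinned to 1000 UMIs, with 1 line per library that held at least 90 such cells. The macrophage lines of siCont stay above those of siFXR1-LNA from 3 members on (9.52% and 9.85% against 1.24% and 1.83%), and the erythroid line of siCont replicate 1 starts high but falls to 0.0846% at 8 members.

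The same unevenness showed in the Fano factor, the variance of the members' UMIs over cells divided by their mean, which is 1 for UMIs scattered at random. Without Hmgb2 it was 2.92 and 3.90 in macrophages of the siCont-labelled libraries and 1.67 and 2.28 in the siFXR1-LNA-labelled libraries. It was 4.63 and 2.07 against 2.91 and 2.78 in epithelial or mesothelial cells, 2.01 and 3.82 against 1.11 and 0.953 in DCs, and 1.25 and 1.22 in erythroid cells of the siCont-labelled libraries. The members' UMIs were thus concentrated in some macrophages, some epithelial or mesothelial cells and, in the siCont-labelled libraries, some DCs, and close to an even scatter in erythroid cells, also in siCont replicate 1.

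Finer clustering, still without any cell cycle gene from the lists, left 1 such group of cells in macrophages and 1 in epithelial or mesothelial cells. DCs were not clustered again on their own, and the finer T cell cluster described above is not followed further. The 2 groups are described here. They were picked by their member levels, so the levels are a description. The macrophage group held 276 cells, 157 and 97 from the siCont-labelled libraries and 6 and 16 from those labelled siFXR1-LNA. That was 3.04% (2.59 to 3.55) and 3.79% (3.09 to 4.61) of the macrophages against 0.145% (0.0532 to 0.315) and 0.405% (0.232 to 0.656), with both siCont shares above both of the other group. The group carried 30.9% and 39.0% of the members' UMIs of all macrophages in the siCont-labelled libraries and 3.44% and 7.01% in the siFXR1-LNA-labelled libraries.

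Within that group the level was alike in all 4 libraries, at 7923 and 8071 CPM against 8980 and 7365 CPM. Outside it macrophages still differed, with 872 and 761.8 CPM in the siCont-labelled libraries and 474 and 461 CPM in the siFXR1-LNA-labelled libraries. Both a smaller share of such cells and a lower level in the remaining macrophages thus went with the lower sum. Since the libraries differ in the level outside the group, each member's level in it was divided by that of the other macrophages of the same library. Rrm2, the small subunit of ribonucleotide reductase made in S phase, was 30.4 and 35.4 times as high in the siCont-labelled libraries, Birc5 (survivin, which holds the chromosomal passenger complex) 17.9 and 30.1 times and Top2a (topoisomerase II alpha) 16.7 and 31.8 times. Pcna, the clamp of the replicative polymerases, was 4.16 and 3.35 times as high and Cdca7, lowest of the list in both, 2.21 and 2.44 times. The 6 and 16 cells of the siFXR1-LNA-labelled libraries are too few for ratios of single members.

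The epithelial or mesothelial group held 57 cells, 39 and 1 from the siCont-labelled libraries and 16 and 1 from those labelled siFXR1-LNA. It was 5.46%, 0.980%, 1.29% and 0.283% of the type in these libraries, and single cells in replicates 2 give no usable share. In siCont replicate 1, the library with most of these cells, the mitotic members led. Kif23, a motor of cytokinesis, was 24.4 times its level in the other cells of the type, Mki67, the proliferation marker that coats mitotic chromosomes, 21.9 times and Aurkb, a kinase of the chromosomal passenger complex, 20.2 times. In contrast Pcna was 0.967 times, Mcm7 1.20 times and Mcm6 1.68 times. By phase, the median ratio of the S-phase members in this library was 2.46 times in the 39 cells and 5.80 times in the 157 macrophages, and that of the G2 and M members 10.6 and 11.9 times. In the 97 macrophages of siCont replicate 2 the medians were 5.77 and 19.7 times, so the G2 and M members were ahead there too.

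**Figure D3:**
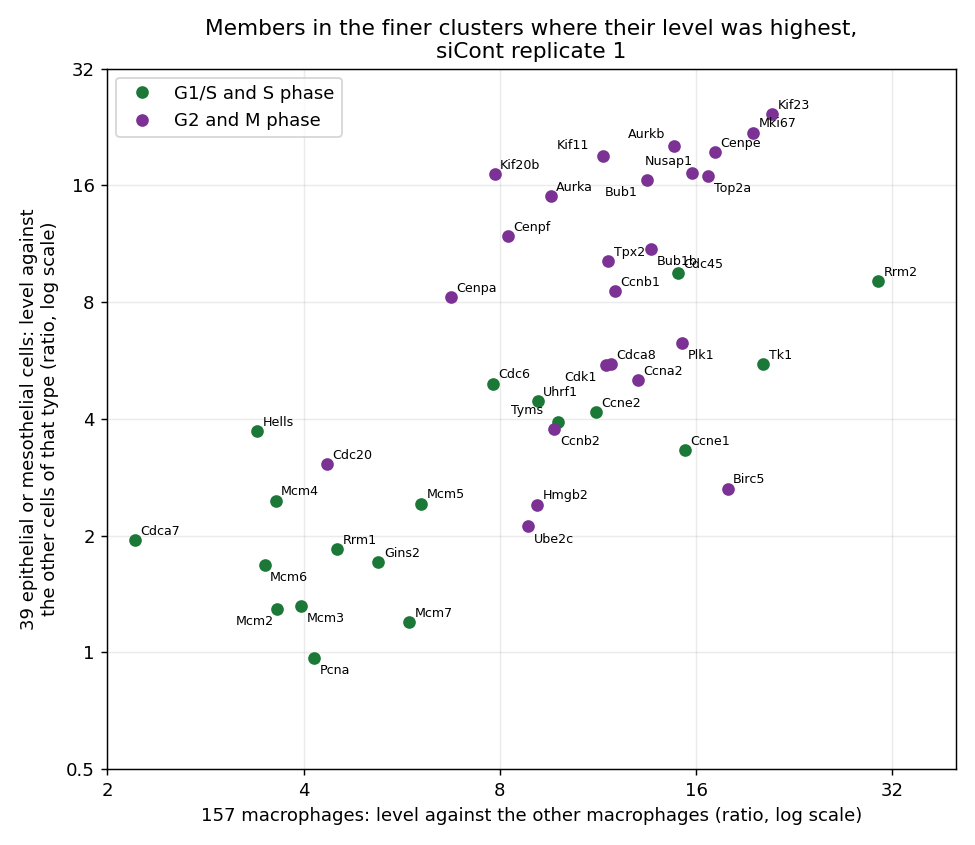
Level of each member in the finer macrophage group of siCont replicate 1 (157 cells) over its level in the other macrophages of that library (horizontal) against the same ratio for the epithelial or mesothelial group (39 cells, vertical), both on log axes, 1 point per member, green for G1/S and S phase and purple for G2 and M. Pcna lies lowest (4.16 and 0.967), Rrm2 farthest right (30.4) and Kif23 at the top (20.9 and 24.4).

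Nearly the whole list was lower in macrophages of the siFXR1-LNA-labelled libraries. For each cell type the UMIs of its cells were added up within a library, and these sums were compared with edgeR's quasi-likelihood test over all genes, with Benjamini-Hochberg adjustment and a threshold of 0.05. Of the 43 members tested in macrophages 39 were lower in the siFXR1-LNA-labelled libraries and 0 were higher, where 9.29% of 14526 genes were called lower. The median log2 fold change of the members was -1.93, against 0.0029 over all genes tested. In 42 of the 43 both siFXR1-LNA-labelled libraries were below both labelled siCont, where 45.9% of all genes were so ordered. By phase 18 of 19 S-phase and 21 of 24 G2 and M members were called. In siCont replicate 1 only 23 of the 43 members were higher in macrophages than in erythroid cells (median ratio 1.02). In siCont replicate 2 it was 41 (median ratio 4.46). The siCont replicate 1 values below are thus near the erythroid floor of that library for many members, and the part of that RNA in them was not tested.

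Among the S-phase members, the cyclins E that open S phase were low everywhere. Ccne1 had 5.13 and 4.78 CPM in macrophages of the siCont-labelled libraries and 1.14 and 1.71 CPM in the siFXR1-LNA-labelled libraries (log2 fold change -1.62 ± 0.30 SE, edgeR adjusted p = 0.0278), and Ccne2 had 3.78 and 4.39 against 1.44 and 1.53 CPM (-1.29 ± 0.28, adjusted p = 0.0385). In both the groups did not overlap. The helicase followed. Mcm5 had 26.2 and 37.6 against 4.10 and 5.58 CPM (-2.55 ± 0.27, adjusted p = 0.00982) and Mcm6 43.7 and 50.9 against 12.4 and 14.4 CPM (-1.65 ± 0.15, adjusted p = 0.00816). The promoters of both carry E2F sites in the windows printed above. The 6 MCM subunits fell by 1.22 (Mcm7) to 2.55 on the log2 scale.

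Pcna fell least of the called members, from 78.7 and 81.8 to 45.7 and 45.3 CPM (-0.65 ± 0.11, adjusted p = 0.0227). The enzymes that make nucleotides fell more. Rrm2 had 14.6 and 13.2 against 1.65 and 2.14 CPM (-2.70 ± 0.22, adjusted p = 0.00663), and Tk1, thymidine kinase, had 21.95 and 23.1 against 2.49 and 4.92 CPM (-2.42 ± 0.33, adjusted p = 0.0143). Both were several times lower in each library labelled siFXR1-LNA. Rrm1, the large subunit beside Rrm2, had 57.4 and 38.1 against 28.0 and 20.4 CPM and did not pass the test (adjusted p = 0.0845). Uhrf1, which carries DNA methylation over to the new strand, showed the largest fall of the list, from 16.5 and 18.3 to 1.48 and 2.66 CPM (-2.89 ± 0.32, adjusted p = 0.0102), and Hells fell from 21.2 and 22.4 to 3.67 and 4.37 CPM.

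Of the G2 and M members, Mki67 had 60.7 and 55.1 CPM in macrophages of the siCont-labelled libraries and 20.8 and 22.1 CPM in the siFXR1-LNA-labelled libraries (-1.26 ± 0.11, adjusted p = 0.00699). Top2a had 75.0 and 54.1 against 10.8 and 10.4 CPM (-2.43 ± 0.18, adjusted p = 0.00586). Neither overlapped. The mitotic cyclins and their kinase went the same way, with Cdk1 at 22.9 and 18.8 against 5.57 and 4.95 CPM (-1.82 ± 0.17, adjusted p = 0.00847), Ccna2 at 21.4 and 17.2 against 3.38 and 3.50 CPM (-2.31 ± 0.18, adjusted p = 0.0061) and Ccnb1 at 10.8 and 7.29 against 1.94 and 2.02 CPM (-2.01 ± 0.27, adjusted p = 0.0137).

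Mitotic kinases and their partners were also lower. Plk1, which drives entry into mitosis, had 11.01 and 8.79 against 1.39 and 1.59 CPM (-2.55 ± 0.24, adjusted p = 0.00816), the third largest fall of the list. Aurkb had 14.7 and 16.4 against 2.83 and 3.35 CPM (-2.16 ± 0.20), and Birc5 of the same passenger complex 32.1 and 36.4 against 7.26 and 7.35 CPM (-2.06 ± 0.15). In both complex members the groups were far apart. Cenpf, a kinetochore protein, had 28.4 and 20.04 against 7.09 and 3.76 CPM, and Kif11, the motor that keeps the spindle poles apart, 25.1 and 15.4 against 3.46 and 2.89 CPM. Both passed the test (adjusted p = 0.0254 and 0.0111).

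The exit from mitosis was represented by Cdc20 and Ube2c, both of the anaphase-promoting complex. Cdc20 had 11.7 and 6.95 against 2.75 and 1.94 CPM in macrophages (-1.82 ± 0.35, adjusted p = 0.0285), and Ube2c 61.1 and 43.9 against 15.7 and 8.82 CPM (-1.93 ± 0.33, adjusted p = 0.0223). Ube2c was also high in erythroid cells, which were far more frequent in the siCont-labelled libraries, and the part of that RNA in the macrophage value was not tested. The called members not named so far fell by 1.09 (Gins2, of the replicative helicase) to 2.30 (Kif23) on the log2 scale. The members that did not pass were Bub1b (11.1 and 11.3 against 6.29 and 6.19 CPM, adjusted p = 0.0552), Cenpa, the centromeric histone (32.3 and 31.4 against 21.8 and 20.9 CPM, adjusted p = 0.0655), Rrm1 and Hmgb2. Hmgb2 was the exception in direction, with 155 and 185 against 179 and 190 CPM (189.7 before rounding) and a log2 fold change of 0.28 ± 0.16 (adjusted p = 0.25), and its groups overlapped.

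**Figure D4:**
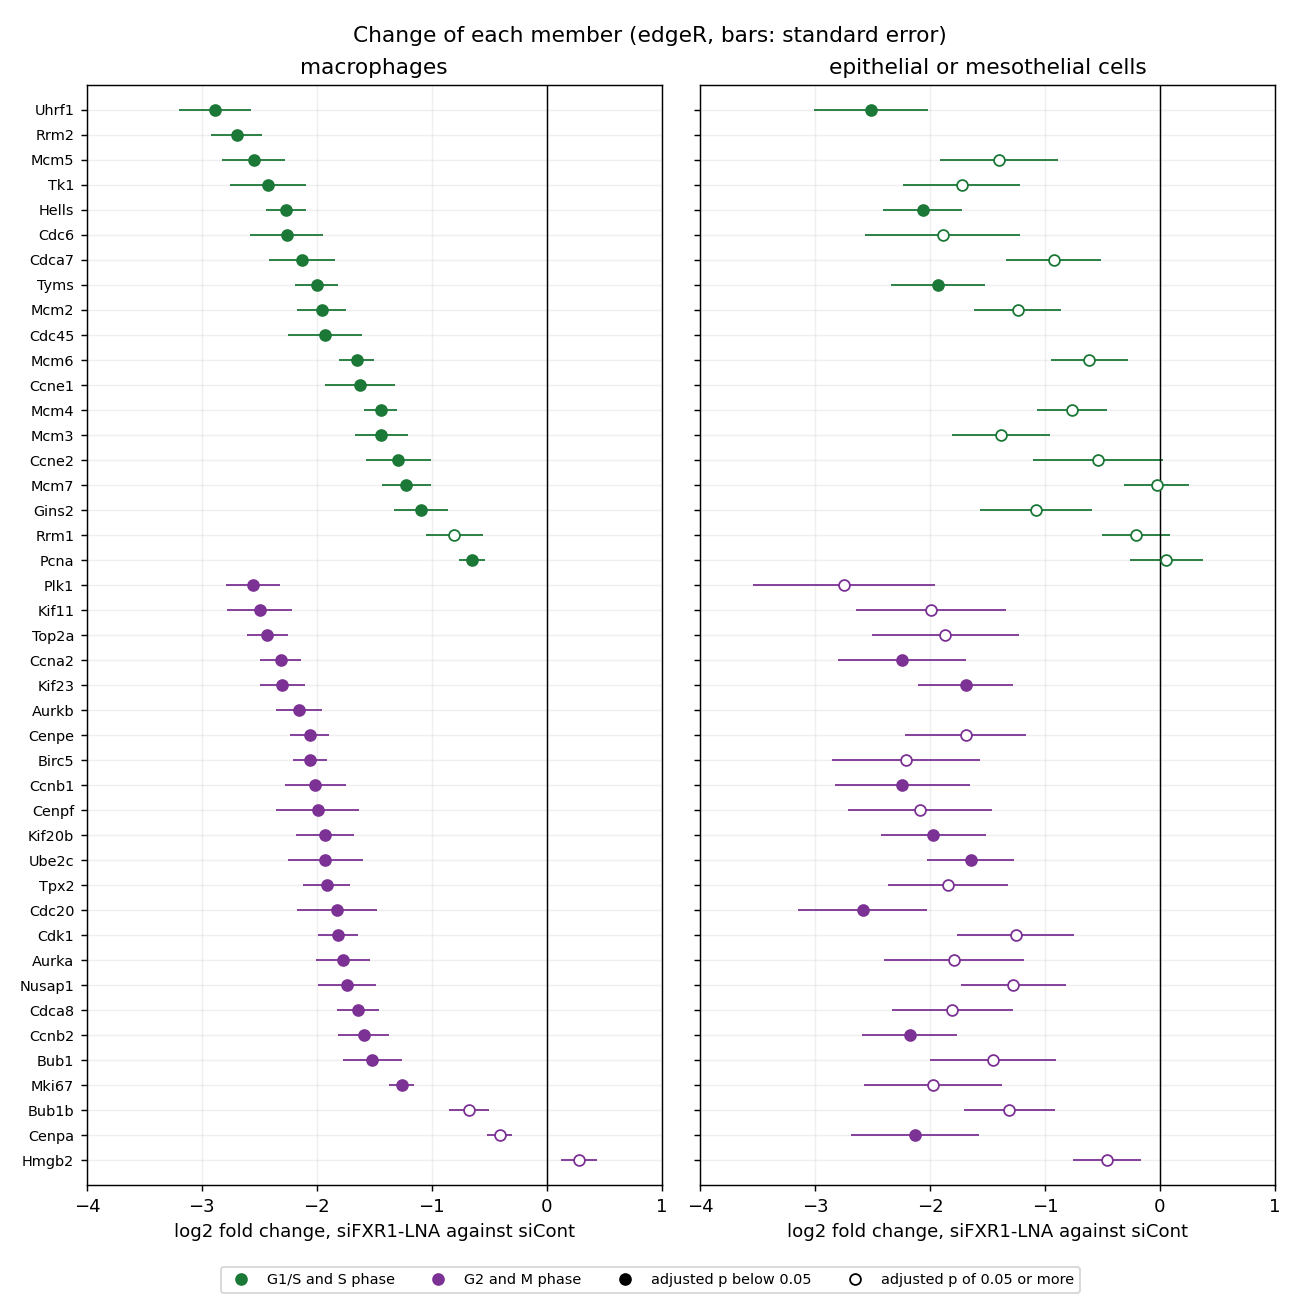
Log2 fold change of each member, libraries labelled siFXR1-LNA against those labelled siCont, in macrophages (left) and epithelial or mesothelial cells (right), with bars for the standard error from edgeR (2 libraries per group), filled points for an adjusted p below 0.05 and no point where a member was not tested. In macrophages 39 of 43 points are filled and only Hmgb2 (0.28) lies above 0, and in epithelial or mesothelial cells 11 of 39 are filled.

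The macrophages of the groups were not the same kinds of macrophage. Their 7 markers summed to 8916 and 7706 CPM against 3459 and 4950 CPM, and 7 granulocyte markers in them to 133 and 550 against 1384 and 1582 CPM, with none of either list at 0. A cluster led by Retnla, Fcna and Apoe held 97.6% and 98.2% of the macrophages labelled siCont and 33.8% and 40.6% of those labelled siFXR1-LNA, and the rest were in a cluster led by Ms4a4a, Saa3 and Cacna1d. Within the first cluster alone, 0 of the 43 members were called by edgeR (0% of 13681 genes were called lower there), 41 had an unadjusted p below 0.05 (17.5% of all genes) and the median log2 fold change was -1.60. Mki67 in it had 60.7 and 55.3 against 19.9 and 21.0 CPM (edgeR adjusted p = 0.0742). Over all macrophages, the median of the members without siCont replicate 1 was -1.73. Without siFXR1-LNA replicate 1 the call in all macrophages fell to 10 members (0.731% of all genes) and without siFXR1-LNA replicate 2 to 18 (2.60%), with medians of -1.89 and -1.80. In such sums a smaller share of dividing cells and less of the members' RNA per cell cannot be told apart.

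Epithelial or mesothelial cells showed fewer calls, and these turned on siCont replicate 1. Of 39 members tested 11 were lower in the siFXR1-LNA-labelled libraries and 0 higher, where 4.54% of 12467 genes were called lower, and the median was -1.72. Both siFXR1-LNA-labelled libraries were below both labelled siCont for 20 of the 39, where 25.5% of all genes were so ordered. Without siCont replicate 1 the call was 1 member of 36, where 3.11% of all genes were called lower, so it was at the background, and the median was -0.40. Without siCont replicate 2, siFXR1-LNA replicate 1 or siFXR1-LNA replicate 2 it was 32, 21 and 25 of 42 members, where 5.86%, 3.51% and 6.78% of all genes were. With cells above 4800 genes kept, 0 of 42 members and 0.153% of all genes were called lower, 25 members had an unadjusted p below 0.05 (10% of all genes did) and the median was -1.15.

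The members called in epithelial or mesothelial cells were Tyms, Uhrf1 and Hells of S phase and Ccna2, Ccnb1, Ccnb2, Cdc20, Cenpa, Kif20b, Kif23 and Ube2c of G2 and M. Uhrf1 had 21.7 and 8.28 CPM in the siCont-labelled libraries and 2.68 and 2.99 CPM in the siFXR1-LNA-labelled libraries (-2.51 ± 0.50, adjusted p = 0.0118). Cdc20 had 38.0 and 11.8 against 6.21 and 1.49 CPM (-2.58 ± 0.56, adjusted p = 0.0169). The groups did not overlap in either, yet siCont replicate 1 was more than 2 times siCont replicate 2 in both. Ccna2 had 21.3 and 4.73 against 3.11 and 2.99 CPM (-2.25 ± 0.56, adjusted p = 0.0313), Ccnb1 had 18.2 and 4.73 against 3.39 and 1.49 CPM (-2.24 ± 0.59, adjusted p = 0.0389), and Cenpa had 69.3 and 11.8 against 13.1 and 5.60 CPM, so that its groups overlapped.

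Markers of proliferation did not pass in these cells. Mki67 had 116 and 10.7 CPM in the siCont-labelled libraries and 19.5 and 14.6 CPM in the siFXR1-LNA-labelled libraries (-1.97 ± 0.60, adjusted p = 0.0707), and Top2a had 105 and 8.28 against 21.6 and 10.5 CPM (-1.87 ± 0.64, adjusted p = 0.103). In both, siCont replicate 2, with 9 and 7 UMIs in 102 cells, was the lowest of the 4 libraries. Plk1 had the largest fitted fall, with 16.9 and 1.18 against 0.848 and 2.99 CPM (-2.75 ± 0.79, adjusted p = 0.0574), and its groups overlapped. At the other end Pcna had 40.1 and 18.9 against 31.1 and 34.4 CPM (0.06 ± 0.32), Mcm7 had 45.5 and 27.2 against 37.4 and 35.9 CPM (-0.03 ± 0.29) and Rrm1 had 156 and 86.4 against 109 and 101 CPM (-0.21 ± 0.30). Ccne1, Rrm2, Cdc45 and Aurkb had too few UMIs to be tested.

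Whether the change differed between epithelial or mesothelial cells and macrophages was tested as an interaction of group and cell type in edgeR, with the library as a block. None of the 43 members passed, where 1.16% of 15976 genes did. An unadjusted p below 0.05 was found for 5 members, and 12.3% of all genes had one, so the members were at the background. The smallest adjusted p was 0.2004 for Mcm7, whose change was higher in epithelial or mesothelial cells by 1.28 ± 0.41 on the log2 scale. The median difference of the members was 0.28. It was 1.58 without siCont replicate 1, where 5 members and 3.45% of all genes passed, and changed sign to -0.18 without siCont replicate 2, where 1 member and 1.69% of all genes did.

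DCs had few cells and strong falls. Of 38 members tested 3 were lower and 0 higher, where 0.407% of 10555 genes were called lower. Top2a had 56.9 and 42.7 CPM in the siCont-labelled libraries and 6.05 and 2.76 CPM in the siFXR1-LNA-labelled libraries (-3.60 ± 0.40, adjusted p = 0.0192), Mki67 had 47.3 and 43.0 against 9.08 and 4.83 CPM (-2.78 ± 0.33, adjusted p = 0.0213) and Birc5 had 24.4 and 22.3 against 3.03 and 2.07 CPM (-3.24 ± 0.39, adjusted p = 0.022). The lower values rest on 3 to 9 UMIs per library. In DCs of siCont replicate 1, 0 of the 43 members were above 2 times their erythroid level, and 32 were in siCont replicate 2. The siCont replicate 1 values of DCs were thus near the erythroid floor of that library. The groups did not overlap for 35 of the 38, where 24.1% of all genes were so ordered, and the median was -1.64. Without siFXR1-LNA replicate 1 or 2 the edgeR call was 0 of 41 members (0% and 0.187% of all genes were called lower), with 33 and 22 members at an unadjusted p below 0.05. Without siCont replicate 1 or 2 it was 9 of 33 and 12 of 37, where 2.16% and 1.58% of all genes were called lower.

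In granulocytes 11 of 41 members were lower and 0 higher, where 2.05% of 12340 genes were called lower, and the median was -1.88. Rrm2 had 16.3 and 14.1 CPM in the siCont-labelled libraries and 1.57 and 0.773 CPM in the siFXR1-LNA-labelled libraries (-3.91 ± 0.54, adjusted p = 0.00611). Uhrf1 had 8.77 and 5.65 against 1.23 and 1.03 CPM (-2.83 ± 0.60, adjusted p = 0.0349), Tk1 had 20.1 and 5.08 against 1.84 and 2.15 CPM (-2.68 ± 0.62, adjusted p = 0.0481), Aurkb had 13.8 and 6.21 against 1.84 and 1.55 CPM (-2.67 ± 0.56, adjusted p = 0.035) and Top2a had 75.2 and 31.6 against 12.7 and 6.70 CPM (-2.61 ± 0.48, adjusted p = 0.0197). None of the 5 overlapped. The other called members were Mcm3, Mcm4, Tyms, Mki67, Ccnb1 and Kif20b. Both siFXR1-LNA-labelled libraries were below both labelled siCont for 33 of the 41, where 16.3% of all genes were so ordered. The call was 1 without siFXR1-LNA replicate 2, 6 without siFXR1-LNA replicate 1, 20 without siCont replicate 1 and 24 without siCont replicate 2, where 1.41%, 0.778%, 8.79% and 3.14% of all genes were called lower.

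T cells and B cells gave no calls. In T cells 0 of 41 members passed in edgeR, where 0.124% of 12086 genes were called lower, 18 had an unadjusted p below 0.05 (11.7% of all genes did) and DESeq2 called 1. Mki67 in T cells had 62.1 and 18.5 CPM in the siCont-labelled libraries and 18.4 and 25.9 CPM in the siFXR1-LNA-labelled libraries. In B cells 0 of 41 passed, where 0.0161% of 12458 genes were called lower, 12 had an unadjusted p below 0.05 (14.3% of all genes did) and DESeq2 called 0. Mki67 in B cells had 45.1 and 16.7 against 17.2 and 12.6 CPM. In both types siCont replicate 1 stood alone above the other 3 libraries. The groups did not overlap for 22 of 41 members in T cells, where 12.2% of all genes were so ordered, and for 18 of 41 in B cells, where 14.5% were. The medians of -1.25 and -1.16 became -0.38 and -0.45 without siCont replicate 1. Without siCont replicate 2, 8 of 42 members were called in T cells and 11 of 39 in B cells, where 0.848% and 1.60% of all genes were called lower.

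Mast cells and erythroid cells could hardly be tested. In mast cells only 5 members had enough UMIs, 0 passed in edgeR, where 0.945% of 2010 genes were called lower, 0 had an unadjusted p below 0.05 and DESeq2 called 0. In erythroid cells the siFXR1-LNA-labelled libraries held 14 and 78 cells and the median of all genes was -0.75, so the 1 member of 42 called lower, Top2a with 0 UMIs in both of them, has no reading (0.159% of 11322 genes were called lower).

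Genes of the cycle outside the list were read from lists of replication genes, mitotic genes, transcription factors and CDK inhibitors. In macrophages 21 of 32 replication genes and 41 of 48 mitotic genes were lower and 0 higher, with medians of -1.09 and -1.77. Prim1, the primase that starts each new strand, had 10.6 and 11.4 against 1.14 and 1.91 CPM (-2.67 ± 0.31, adjusted p = 0.0112) and Stmn1, a tubulin-binding protein, 50.8 and 59.0 against 13.5 and 12.7 CPM. In epithelial or mesothelial cells 8 of 31 and 12 of 42 were lower and 0 higher. Of the other genes known to follow the cycle, 11 of 25 were lower in macrophages and 1 (the linker histone Hist1h1c) was higher.

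Of 16 transcription factors and partners, 5 were lower and 1 higher in macrophages. Foxm1, the activator of the G2 and M genes, had 5.73 and 4.25 CPM in the siCont-labelled libraries and 0.887 and 0.752 CPM in the siFXR1-LNA-labelled libraries (-2.43 ± 0.31, adjusted p = 0.0131). E2f7, E2f8, Mybl2 and Rbl1 were the other 4, while Rb1 rose from 57.7 and 60.9 to 71.2 and 75.0 CPM (0.47 ± 0.11, adjusted p = 0.0488). E2f1 did not pass, at 12.5 and 15.2 against 14.9 and 17.2 CPM. In epithelial or mesothelial cells Foxm1, Rbl1 and Lin37 were lower, and Myc was higher at 30.7 and 26.04 against 87.2 and 50.1 CPM (1.31 ± 0.33, adjusted p = 0.0328). Since myc is part of the genotype of the injected tumor cells, these counts may include it, and its part was not tested.

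Among the CDK inhibitors Cdkn1b, p27, which holds cyclin E and cyclin A kinases in check, was higher in macrophages of the siFXR1-LNA-labelled libraries. It had 43.3 and 38.6 against 95.1 and 88.9 CPM (1.34 ± 0.12, adjusted p = 0.00714), with no overlap. Of the 7 inhibitors tested in macrophages 1 rose, 1 fell (Cdkn2a, at 1.95 and 2.03 against 0.169 and 0.203 CPM) and 5 did not pass. In epithelial or mesothelial cells Cdkn1b had 77.2 and 74.6 against 95.5 and 119 CPM and did not pass (adjusted p = 0.265), and 0 of the 4 inhibitors tested there passed in edgeR.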

How the data were processed

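Single-cell RNA sequencing of ascites gave 4 libraries, 2 per group. The deposited values are UMI counts for each gene in each barcode, whole and unscaled, which the authors made with Cell Ranger 7.0.0 on mm10 per the labels. The sample labels name 3′ v2 chemistry and the series text v3.1. All other values were computed here. Following the methods, cells had to show 100 to 4800 genes and no more than 15% of UMIs from mitochondrial genes. That filter left 132644 of 133849 barcodes, several times as many cells as the study states after it. The study also set aside 1 siFXR1-LNA library for its few reads and cells, which its methods do not name by label. Both were kept here, and results without each in turn are given. They were clustered in Seurat 5.3.0 (R 4.3.3; 10000 counts per cell, 2000 variable genes without members and other cell cycle genes, 50 principal components, resolution 0.1, no integration). Macrophages, T cells and epithelial or mesothelial cells were clustered again at 0.3, which moved NK cells, DCs, fibroblasts and mixed clusters out of them. Naming a cluster took at least 3 markers that were found in 5% of its cells and stood at 2 times their average elsewhere. This naming rule was written after the clusters had been seen.

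The methods give no test between libraries. UMI counts were summed per library and cell type (at least 10 cells in each library) and compared with edgeR 4.0.16 (TMM, filterByExpr, quasi-likelihood, Benjamini-Hochberg over all genes tested, threshold 0.05), with DESeq2 1.42.0 as an alternative. Fold changes are on the TMM scale, CPM are of all UMIs of the type. On simulated counts of macrophages with 200 changed genes the test called 18 of 100 genes changed 2-fold and 88 of 100 changed 4-fold, with 4 false calls. On those of epithelial or mesothelial cells it called 9 and 85, with 3 false calls. The simulation gave every gene a dispersion of 0.05 and no other difference between libraries of a group than depth. Its counts therefore do not cover the wide spread between the siCont-labelled libraries in epithelial or mesothelial cells. Shares carry 95% exact binomial intervals, and a share of 0 is given the limit that 3 counts allow. Doublets were not removed: Scrublet's own threshold called 1 cell in all, so it did not work, and removal of the 5% highest scores was an alternative. Members, lists and tests were chosen with earlier results of these data known. Values in every library were given for members the study names, 1 member per role, the largest falls and rises, and the largest called changes.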

Additional observations from a re-analysis of the deposited data

How the results depend on the processing

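Every member called under any of these settings in epithelial or mesothelial cells, macrophages, DCs, T cells, B cells and granulocytes was lower. However, 2 medians of results without a call at the main settings changed sign. That of the difference between cell types was 0.28 and became -0.18 without siCont replicate 2, and that of mast cells was -0.45 over 5 members and became 1.40 over 9 without siCont replicate 1, 0.62 over 8 without siFXR1-LNA replicate 1 and 0.53 for 1 member with cell cycle genes kept for clustering. Where a cause is not plain from the setting itself, the cause was not tested. In epithelial or mesothelial cells the 11 calls became 31 with no filter on low counts, 6 with DESeq2, 0 with no upper limit on genes per cell and 19 with cell cycle genes kept for clustering. In macrophages the 39 calls became 0 within the cluster led by Retnla, Fcna and Apoe, an alternative chosen after seeing the data that leaves fewer cells. In DCs the 3 calls became 27 with no filter, 5 with DESeq2, 10 with no upper limit, 8 with at least 500 genes per cell, 5 with cell cycle genes kept, 7 at a resolution of 0.3 and 7 with the highest Scrublet scores removed. With no filter T cells and B cells had 17 calls each and granulocytes 0 in place of 11, DESeq2 gave 1 in T cells, and granulocytes had 7 with at least 500 genes. Leaving out 1 library gave 1 to 32 calls in epithelial or mesothelial cells, 10 to 36 in macrophages, 0 to 12 in DCs, 0 to 8 in T cells, 0 to 11 in B cells and 1 to 24 in granulocytes, and 0 to 5 for the difference between cell types. The median log2 fold changes then ran from -2.17 to -0.40, -1.92 to -1.73, -1.77 to -1.46, -1.88 to -0.38, -1.67 to -0.45 and -2.35 to -1.42 in the same order of types. With the replicate number as a block the calls were 21 in epithelial or mesothelial cells, 41 in macrophages, 21 in DCs, 1 in T cells, 4 in B cells and 30 in granulocytes, but same-numbered libraries share only a number (correlation of their deviations -0.096 to 0.40).

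For the summed level, the log2 ratio of the groups in macrophages was -1.28 and became -1.35 without hemoglobin and mitochondrial UMIs, -1.73 without Hmgb2, -1.40 with no upper limit, -1.31 with at least 500 genes, -1.24 at a resolution of 0.3 and -1.23 with the highest Scrublet scores removed. In granulocytes it was -0.81 and became -1.36 without Hmgb2. The difference in the share of cells with 3 or more distinct members was -8.15 percentage points in macrophages and became -7.22 without Hmgb2, -12.1, -3.65 and -1.24 at 2, 5 and 8 members (the last chosen after seeing the data), -4.05 and -14.8 at 500 and 2000 UMIs and -18.45 with no thinning. In DCs it was -5.08 (-5.075) and became -7.57, -2.62 and -0.59 at 2, 5 and 8 members, -2.32, -9.63 and -21.98 at 500, 2000 and all UMIs, -7.17 with no upper limit and -6.89 with the highest Scrublet scores removed. It was -6.24 in epithelial or mesothelial cells and became -14.0 at 2000 UMIs and -24.0 with no thinning, -7.99 in T cells with -17.4 and -21.98 likewise, -5.10 in B cells with -18.3 with no thinning, and -7.48 in granulocytes with -17.1 at 2 members and -16.3 at 2000 UMIs. Of 73 other values for the number of calls 35 stayed within 1.5 times the value reported. The depth limits what epithelial or mesothelial cells of siCont replicate 2 can show, with 102 cells and 477 member UMIs.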

Other observations

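The cells left out for more than 4800 genes carried the members at a higher level than those kept. They numbered 157 and 149 in the siCont-labelled libraries and 99 and 304 in the siFXR1-LNA-labelled libraries, at medians of 20121, 23326, 21606 and 26169.5 UMIs. Their summed member level was 2698 and 3229 CPM against 1098 and 1332 CPM, beside 1229, 670, 588 and 520 CPM in the cells kept (669.6 and 587.9 before rounding for the second and the third). UMIs of both Mki67 and Top2a were in 35.0% and 44.97% of them against 15.2% and 14.8%, without thinning to an equal depth. Both siCont-labelled libraries were above both siFXR1-LNA-labelled libraries. Epithelial markers summed to 2544 and 1818 against 2326 and 2378 CPM in these cells and macrophage markers to 1880 and 2861 against 543 and 897 CPM, so both kinds of marker were present, and the part of doublets was not tested.

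Mast cells, with 68 to 115 cells in each library, had summed member levels of 2201 and 713 CPM in the siCont-labelled libraries and 1203 and 2621 CPM in the siFXR1-LNA-labelled libraries. The groups overlapped, and the sums rest on 63 to 308 UMIs.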
